A study of Mus musculus with 4 samples.

Results

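Toll-like receptors sense molecules of microbes. Tlr1, Tlr2, Tlr4 and Tlr6 sit in the plasma membrane and bind lipids and lipoproteins of bacteria. Tlr7, Tlr8, Tlr9 and Tlr13 sit in endosomes and bind nucleic acids that reach that compartment. Cd14 is a co-receptor that hands lipopolysaccharide to Tlr4 and its partner protein, and Myd88 is the adaptor through which all 8 of these receptors signal. In blood, neutrophils and monocytes carry most of the surface receptors and Cd14, while B cells and plasmacytoid dendritic cells are known for Tlr7 and Tlr9. These 10 genes were chosen by name, with earlier results of the same libraries known. All 10 were found among the 17823 genes with values in the 4 libraries.

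The libraries are from whole blood of C57BL/6 mice, which the sample labels call adult and the study calls aging mice. Naringenin (Nar), a flavonoid, was injected into the tail vein of 1 group for 30 days, and the control group (Ctrl) received phosphate-buffered saline (PBS) instead. The Nar group has 2 libraries and the Ctrl group has 2, numbered 1 and 3 in each by the labels. The labels do not say whether a library is 1 animal or a pool, so a p-value here measures only the spread between these libraries. Levels are FPKM, fragments per kilobase of transcript scaled to the mapped fragments of a library, which allows genes of different length to be compared within a library. Differences are on log2(FPKM + 0.1), and this pseudocount understates the change of low genes.

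Haemoglobin genes took 92.6% to 96.4% of the summed FPKM, and FPKM is scaled to a total that includes them. The number of reads behind a value is unknown. Between 13632 and 14378 genes had a value above 0 in a library. Over all genes with a value above 0 in any library, the median difference was -0.57. The median difference of the 5339 tested genes was -1.07, hence a fall of that size is shared by the typical tested gene. It was -0.56 with haemoglobin genes removed, -0.0016 with median-of-ratios scaling and 0.68 when Ptprc, the CD45 gene of all white cells, was set equal in every library. Ptprc itself was at 18.1 and 9.29 FPKM in Ctrl 1 and Ctrl 3 and at 4.81 and 2.49 FPKM in Nar 1 and Nar 3. In bulk blood, fewer cells of a type and less RNA per cell cannot be told apart. Ctrl 3 held more platelet RNA than the other libraries, with a summed FPKM of 2062 over 6 platelet marker genes against 419 to 643.

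The genes lie on several chromosomes of the mouse assembly GRCm38. Tlr1 (chromosome 5, 64924680 to 64933600) and Tlr6 (chromosome 5, 64953092 to 64970942) are neighbours, 19492 bases apart. Tlr7 (chromosome X, 167303380 to 167330574) and Tlr8 (chromosome X, 167241123 to 167264329) are also neighbours, 39051 bases apart. Tlr2 is on chromosome 3 (83836272 to 83841824) and Tlr4 on chromosome 4 (66827551 to 66846581). Chromosome 9 holds Tlr9 (106222598 to 106226876) and Myd88 (119335934 to 119340018), and Tlr13 is on chromosome X (106143275 to 106160493). The deposited rows carry NCBI Gene IDs, which are 21897 for Tlr1, 24088 for Tlr2, 21898 for Tlr4, 21899 for Tlr6, 170743 for Tlr7, 170744 for Tlr8, 81897 for Tlr9, 279572 for Tlr13, 12475 for Cd14 and 17874 for Myd88.

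Tlr1 and Tlr6 share enough coding sequence for reads to fit both genes, which bears on every value given for them. In the GENCODE coding sequences of the 8 receptors, the longest identical run was 229 bases between Tlr1 and Tlr6, and it was at most 16 bases in the other 27 pairs. Of all stretches of 100 bases, 11.3% of those in Tlr1 and 11.2% of those in Tlr6 occur in both genes, and 0 are shared in the other pairs. The stretches that follow, 5′ to 3′, show where the shared run begins and ends, and capitals mark bases inside the run. The run starts at base 1468 of the Tlr1 coding sequence and at base 1507 of that of Tlr6, and it ends at bases 1696 and 1735.
Tlr1, start of the run: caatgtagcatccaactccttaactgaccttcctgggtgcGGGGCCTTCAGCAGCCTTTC
Tlr6, start of the run: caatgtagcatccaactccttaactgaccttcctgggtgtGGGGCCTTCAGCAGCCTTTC
Tlr1, end of the run: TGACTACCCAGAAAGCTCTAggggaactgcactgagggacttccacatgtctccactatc
Tlr6, end of the run: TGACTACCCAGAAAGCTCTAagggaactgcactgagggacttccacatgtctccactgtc
How the deposited values divide reads from this run between both genes is not given in the sources used here. The level of Tlr1 against Tlr6 is therefore uncertain in a way that the other receptors are not.

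Cd14 and Myd88 were the highest of the 10 genes in both control libraries, and both were lower with Nar. Cd14 was at 14.7 and 11.9 FPKM in Ctrl 1 and Ctrl 3, and at 0.44 and 0.75 FPKM in Nar 1 and Nar 3. The control libraries lay far above the Nar libraries, and the mean FPKM in controls was 22.4 times the mean with Nar. The log2 difference was -4.30 (standard error 0.43, adjusted p = 0.0024 in limma). Relative to the median of all tested genes it was -3.23, and 0.112% of tested genes had a lower value. Myd88 was at 4.66 and 4.44 FPKM in Ctrl 1 and Ctrl 3 and at 0.94 and 0.87 FPKM in Nar 1 and Nar 3. Replicates were close to each other in both groups, and the log2 difference was -2.21 (standard error 0.37, limma adjusted p = 0.0068). Cd14 exceeded Myd88 by a ratio of 3.16 and 2.68 in the control libraries, but it was below Myd88 with Nar, at 0.468 and 0.862 of its FPKM. This ratio is taken within a library and does not depend on how the libraries are scaled.

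Among surface receptors, Tlr2 and Tlr6 showed the largest differences. Tlr2, which pairs with Tlr1 or Tlr6 to bind lipopeptides, was at 2.11 and 1.51 FPKM in Ctrl 1 and Ctrl 3, and at 0.15 and 0.3 FPKM in Nar 1 and Nar 3. The groups did not overlap, and the log2 difference of -2.58 (standard error 0.40) had a limma adjusted p of 0.0055. Tlr1, the partner for triacylated lipopeptides, was at 1.6, 1.06, 0.58 and 0.33 FPKM in the same order of libraries. It fell less, with a log2 difference of -1.38 (standard error 0.40, limma adjusted p = 0.030), and 26.5% of the tested genes had a lower value. Tlr6, the partner for diacylated lipopeptides, was at 0.78 and 0.71 FPKM in the Ctrl libraries against 0.05 and 0.04 FPKM after Nar. Tlr4, the lipopolysaccharide receptor, was at 0.46 and 0.47 FPKM in the Ctrl libraries against 0.12 and 0.04 FPKM after Nar. Neither Tlr6 nor Tlr4 overlapped between groups, but their means over the 4 libraries were below 0.5 FPKM and they were not tested. Their log2 differences were -2.54 and -1.69. These values depend on the pseudocount, with -0.74 to -3.78 for Tlr6 and -0.44 to -2.56 for Tlr4 between pseudocounts of 1 and 0.01. With median-of-ratios scaling they were -1.83 and -0.97.

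Ratios within a library compare the surface receptors with each other and with Cd14. Tlr1 was at 2.05 and 1.49 times the FPKM of Tlr6 in Ctrl 1 and Ctrl 3, and at 11.6 and 8.25 times in Nar 1 and Nar 3. These groups do not overlap, yet the denominators with Nar are 0.05 and 0.04 FPKM, and both genes share the coding run printed above. Tlr2 was at 1.32 and 1.43 times the FPKM of Tlr1 in controls and at 0.259 and 0.909 times with Nar. Against its other partner, Tlr6, the ratio was 2.71 and 2.13 in controls and 3.0 and 7.5 with Nar. The denominators with Nar are again 0.05 and 0.04 FPKM. Rounding to 2 decimals allows the groups to overlap, so no direction is read from this ratio. Cd14 was at 32.0 and 25.3 times the FPKM of Tlr4 in controls and at 3.67 and 18.8 times with Nar, where Nar 1 and Nar 3 differed widely.

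**Figure D1:**
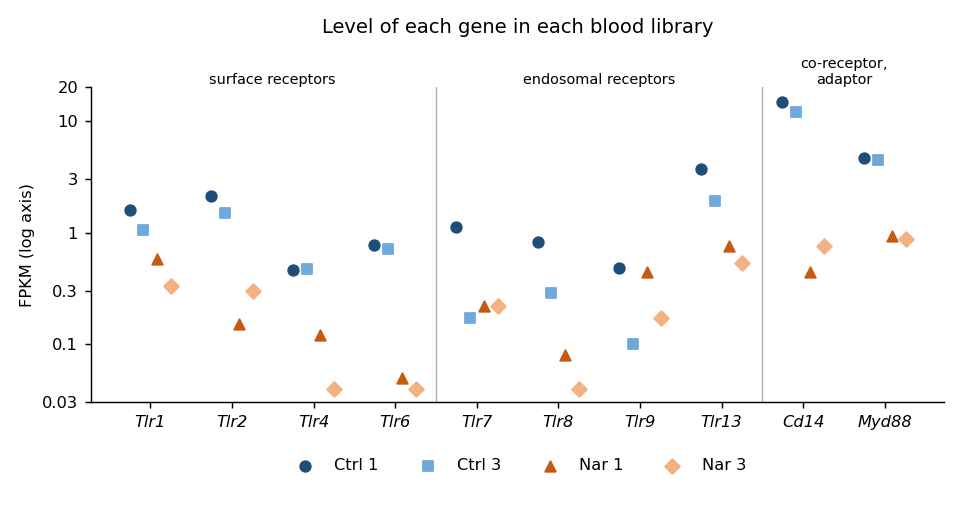
FPKM of each of the 10 genes in each library, on a log axis, with 1 point per library and genes ordered by class. Both Nar points lie below both Ctrl points for 8 genes, whereas Tlr7 and Tlr9 overlap, with the Ctrl 3 points (0.17 and 0.1 FPKM) the lowest of the 4 libraries.

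The endosomal receptors were more mixed. Tlr13, which binds bacterial ribosomal RNA, was the highest of the 8 receptors in Ctrl 1, Ctrl 3, Nar 1 and Nar 3, at 3.69, 1.92, 0.75 and 0.53 FPKM. It was the only endosomal receptor above the limit for testing, and its log2 difference was -1.92 (standard error 0.41, limma adjusted p = 0.015). Tlr8, an RNA sensor, was at 0.83 and 0.29 FPKM in Ctrl 1 and Ctrl 3, and at 0.08 and 0.04 FPKM in Nar 1 and Nar 3. Its groups did not overlap either, and the log2 difference was -1.92. It was -1.30 without Ctrl 1 and -2.55 without Ctrl 3, and it was -0.54 and -2.90 with pseudocounts of 1 and 0.01.

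Tlr7 and Tlr9 did not separate the groups. Tlr7, a sensor of single-stranded RNA, was at 1.11 FPKM in Ctrl 1 but at 0.17 in Ctrl 3, and it was listed at 0.22 FPKM in both Nar libraries. The Nar values lie between the control values, and the log2 difference of -0.84 rests on Ctrl 1. It was 0.25 without Ctrl 1 and -1.92 without Ctrl 3. Tlr9, which binds DNA rich in unmethylated CpG, was at 0.48 and 0.1 FPKM in Ctrl 1 and Ctrl 3 and at 0.44 and 0.17 FPKM in Nar 1 and Nar 3. Its log2 difference was 0.16, and it turned to -0.60 without Ctrl 3 and to -0.34 without Nar 1. Neither gene reached a mean of 0.5 FPKM, so no limma p-value was obtained from the fit over tested genes.

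**Figure D2:**
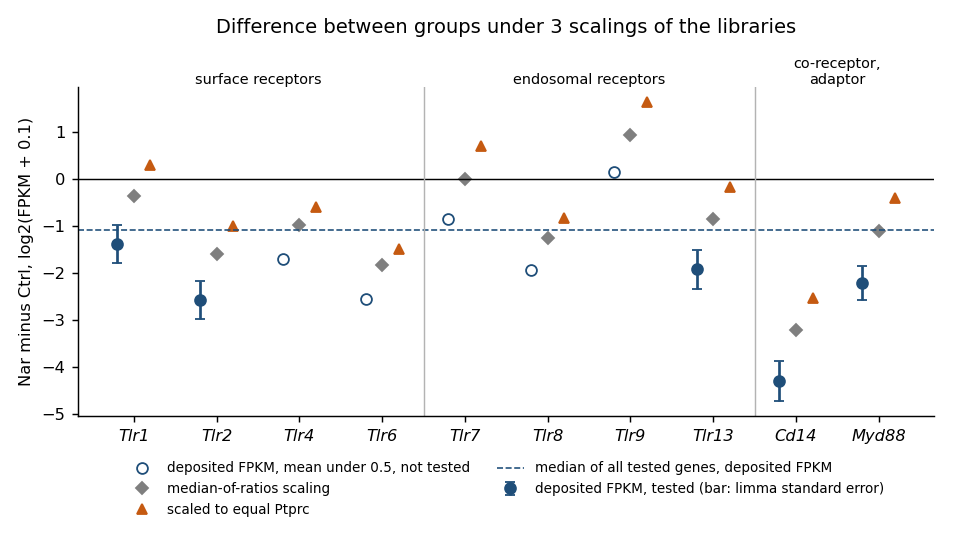
Log2 difference between Nar and Ctrl for each gene with deposited FPKM (circles, filled where tested, with limma standard errors), median-of-ratios scaling (diamonds) and equal Ptprc (triangles). The dashed line is the median of all tested genes, -1.07. Cd14 is lowest under each scaling, and Tlr9 is above 0 under each.

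By class, the surface receptors were lower with Nar in every library, while the mean of the endosomal receptors in Ctrl 3 was close to the Nar libraries. That held for Tlr7 and Tlr9 only, since Tlr8 and Tlr13 in Ctrl 3 were above both Nar libraries. The mean log2(FPKM + 0.1) of the 4 surface receptors was 0.22 and -0.05 in Ctrl 1 and Ctrl 3, and -1.87 and -2.05 in Nar 1 and Nar 3. That of the 4 endosomal receptors was 0.33, -1.14, -1.31 and -1.76. The control libraries thus differed by 0.28 in the surface mean and by 1.47 in the endosomal mean.

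The difference between both means was formed within each library, where the scaling of libraries cancels apart from the pseudocount. Surface minus endosomal was -0.10 in Ctrl 1 and 1.09 in Ctrl 3, against -0.56 in Nar 1 and -0.29 in Nar 3. The groups did not overlap. The mean over the Ctrl libraries was 0.49 ± 0.84 (SD, n = 2), and over the Nar libraries it was -0.43 ± 0.19 (SD, n = 2). They differed by -0.92, which is close to the spread between the control libraries. Without Ctrl 3 it was -0.32 and without Ctrl 1 it was -1.51. Without Tlr9 in the endosomal mean the difference was -0.49 and the groups overlapped, with Ctrl values of -0.48 and 0.69 and Nar values of -0.42 and -0.34. A separate response of surface and endosomal receptors was therefore not resolved by these 4 libraries. No p-value is given, since the genes were chosen with results known.

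**Figure D3:**
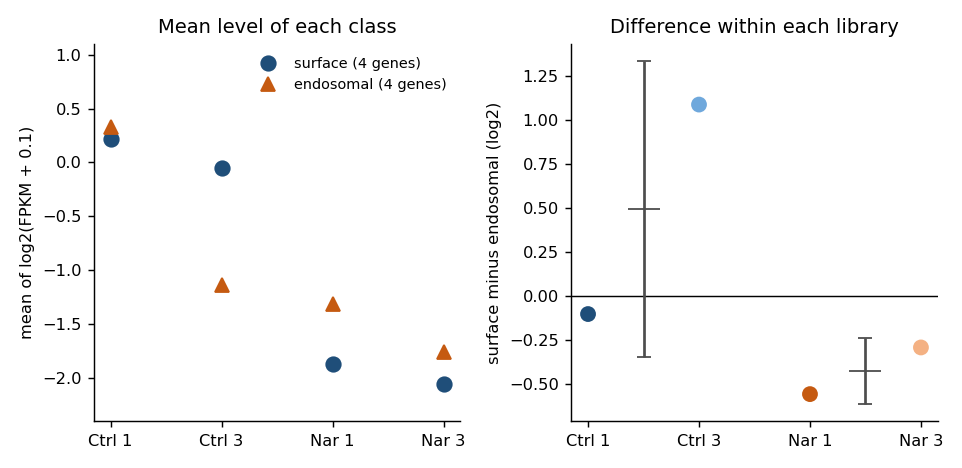
Left, mean log2(FPKM + 0.1) of the 4 surface and the 4 endosomal receptors in each library. Right, surface minus endosomal mean in each library, with group mean and SD (n = 2) drawn between its points. Ctrl 1 and Ctrl 3 lie 1.19 apart on the right (-1.19 for Ctrl 1 minus Ctrl 3), which is more than the -0.92 between the group means.

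Markers of neutrophils and monocytes were lower together with the receptors, and those of B cells did not pass the test. All 11 neutrophil marker genes passed as lower with Nar, beside 39.6% of all tested genes (1 of them met the limit for testing through its control values), and their summed FPKM was 1431 to 1737 in controls and 105 to 165 with Nar. S100a9, the highest of them, was at 724 and 554 FPKM in the Ctrl libraries against 41.5 and 67.5 FPKM after Nar. The sum over 8 monocyte markers was 70.0 and 88.6 FPKM in controls and 27.7 and 9.54 FPKM with Nar, and 4 of the 7 tested passed as lower. With median-of-ratios scaling, 5 of 11 neutrophil markers and 1 of 7 monocyte markers passed, beside 0.599% of all tested genes. With equal Ptprc the median difference of the neutrophil markers was -1.67, against -3.58 for deposited FPKM. Their lowest limma adjusted p on that scale was 0.32. The median difference of the monocyte markers was -0.12 with equal Ptprc, against -1.61 for deposited FPKM. F13a1 was the highest of the 8 monocyte markers. It was at 18.6, 46.6, 18.2 and 5.98 FPKM in Ctrl 1, Ctrl 3, Nar 1 and Nar 3. F13a1 was the larger part of the monocyte sum in each library but Ctrl 1. It was higher in Ctrl 3 than in Ctrl 1, as were the 6 platelet markers, while 5 of 8 monocyte markers were lower. The 6 B cell markers summed to 35.9 and 27.3 FPKM in controls and to 26.9 and 29.0 FPKM with Nar, and 0 of them passed in limma, with or without adjustment. The median difference of the B cell markers depended on the scaling, with -0.38 for deposited FPKM, 0.74 with median-of-ratios scaling and 1.46 with equal Ptprc. Cd79a, the highest, had 14.3, 13.01, 10.6 and 10.9 FPKM.

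Of 5 tested T cell markers 0 passed in limma (1 with an unadjusted p under 0.05), and the sum over all 6 of them was 4.55 to 7.24 FPKM in controls and 3.08 to 4.46 FPKM with Nar, with Lck at 2.04, 1.57, 1.04 and 0.75 FPKM. Of 5 NK cell markers 1 passed as lower (0 with median-of-ratios scaling), with sums of 18.01 to 19.7 FPKM in controls and 4.67 to 9.42 FPKM with Nar, and Gzma was at 9.48, 12.8, 4.68 and 2.29 FPKM. Of 6 platelet markers 0 passed in limma (1 with an unadjusted p under 0.05), among which Pf4 was at 233, 846, 150 and 161 FPKM. The erythroid list had 0 of 5 tested genes past the threshold in limma, with or without adjustment, and Alas2 was at 6055, 6991, 6492 and 6487 FPKM. Ahsp of that list was not found under this symbol. The plasmacytoid dendritic cell list was near the lower limit, with Klk1 at 0 in all 4 libraries and Siglech at 0.1, 0, 0.11 and 0.02 FPKM. Only Bst2 of that list could be tested, at 1.74, 2.99, 0.74 and 0.69 FPKM. It passed as lower, as did 39.6% of all tested genes. With median-of-ratios scaling it did not pass (-0.46, limma adjusted p = 0.69), and with equal Ptprc it was at 0.21.

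Ctrl 3 was below Ctrl 1 for 10 of 11 neutrophil, 5 of 8 monocyte, 6 of 6 B cell, 5 of 6 T cell and 4 of 5 NK cell markers, for 0 of 6 platelet markers, and for Ptprc. It was also below Ctrl 1 for the 4 endosomal receptors and for Tlr1, Tlr2 and Tlr6. The part of these cell markers in the receptor values was not tested. Relative to Ptprc, Tlr1 was at 8.83% and 11.4% in controls and at 12.1% and 13.3% with Nar, slightly higher on this scale. Its log2 difference was 0.30 with equal Ptprc, below the 0.68 of the median tested gene. Tlr13 was at 20.4% and 20.7% of Ptprc in controls and at 15.6% and 21.3% with Nar, which overlaps. Cd14 was at 81.1% and 128% of Ptprc in controls and at 9.15% and 30.1% with Nar, and Tlr6 was at 4.30% and 7.64% against 1.04% and 1.61%. Tlr8 was at 4.58% and 3.12% against 1.66% and 1.61%, and Tlr4 was at 2.54% and 5.06% against 2.49% and 1.61%. For Cd14, Tlr6 and Tlr8 the Nar values stayed below the Ctrl values on this scale. For Tlr4 the gap is within the rounding of the deposited values, and Tlr2, Tlr7, Tlr13 and Myd88 overlapped. Tlr9 was at 2.65% and 1.08% of Ptprc in controls and at 9.15% and 6.83% with Nar, above both controls. How many of all genes were lower, overlapped or were higher on this scale was not counted.

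**Figure D4:**
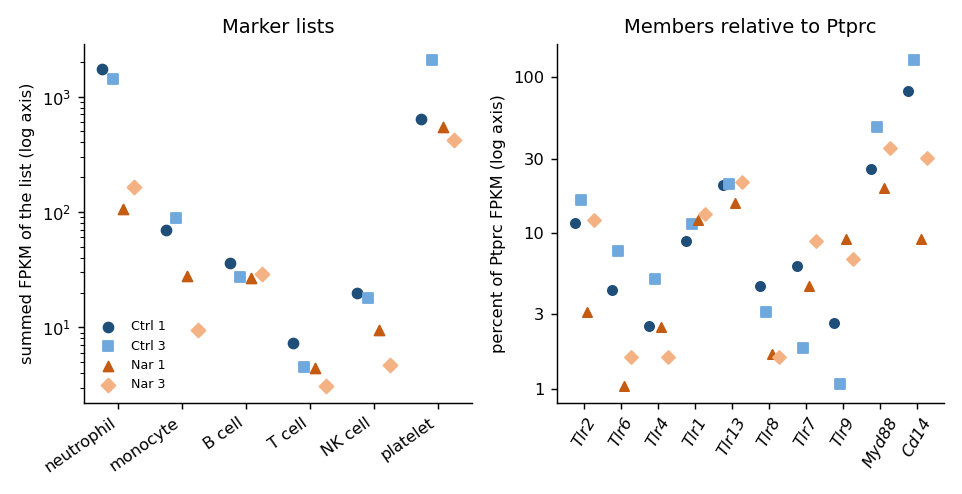
Left, summed FPKM of 6 cell marker lists in each library. Right, FPKM of each of the 10 genes as a percent of Ptprc FPKM in the same library. Both vertical axes are logarithmic. Neutrophil sums fall from at least 1431 to at most 165, while B cell sums lie between 26.9 and 35.9 in deposited FPKM.

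Over the 10 genes, both Nar libraries were below both control libraries for 8, while this held for 52.7% of the 16382 genes with any value above 0. The 5 genes that could be tested were Tlr1, Tlr2, Tlr13, Cd14 and Myd88, and all 5 passed as lower, where 39.6% of all tested genes were lower and 0.187% were higher at the same threshold. This count is no support in itself, since Tlr1 and Tlr2 met the limit of 0.5 FPKM through their control values. The median log2 difference of the 10 genes was -1.92, or -0.85 relative to the median of all tested genes, and 8 of the 10 lay below that median.

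With median-of-ratios scaling, 1 of the 5 tested genes passed, Cd14 at -3.20 (limma adjusted p = 0.018), where 0.599% of all tested genes were lower at that threshold. Tlr2 was then at -1.60, Myd88 at -1.10, Tlr13 at -0.84 and Tlr1 at -0.35, with limma adjusted p-values of 0.124, 0.157, 0.404 and 0.839. Tlr7 turned to 0.01 and Tlr9 stood at 0.95. With equal Ptprc, Tlr1 also turned positive (0.30), below the 0.68 of the median tested gene. On that scale 0 of the 5 genes passed in limma (1 with an unadjusted p under 0.05). Leaving out Ctrl 1 or Ctrl 3 ended all 5 calls, with limma adjusted p-values of 0.083 to 0.123 and of 0.087 to 0.0988. The log2 differences were then, without Ctrl 1 and without Ctrl 3, -4.15 and -4.45 for Cd14, -2.35 and -2.81 for Tlr2 and -2.18 and -2.24 for Myd88. These fits leave 1 library in a group, and the loss of calls was shared by the other tested genes. Without Nar 1, Cd14 was at -3.97, Tlr2 at -2.24 and Myd88 at -2.26. Without Nar 3, they were at -4.63, -2.92 and -2.16.

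The order of levels differed between the groups. In controls the order of the means was Cd14, Myd88, Tlr13, Tlr2, Tlr1, Tlr6, Tlr7, Tlr8, Tlr4 and Tlr9. Neighbours in that order differed by no more than their larger SD (n = 2) from Tlr13 to Tlr2 and for every step from Tlr6 down to Tlr9. With Nar the order was Myd88, Tlr13, Cd14, Tlr1, Tlr9, Tlr2, Tlr7, Tlr4, Tlr8 and Tlr6. There, only the steps from Myd88 to Tlr13 and from Tlr7 to Tlr4 exceeded the larger SD.

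The rest of the pathway was described by 45 further genes with values, listed by role, of which 30 could be tested. Of these, 16 passed as lower and 0 as higher in limma (20 and 0 with an unadjusted p under 0.05), beside 39.6% and 0.187% of all tested genes. Of the 16, 7 had a mean under 0.5 FPKM with Nar and met the limit for testing through their control values, so the count is no support in itself. The median log2 difference of the 30 was -1.20, near the -1.07 of all tested genes. With median-of-ratios scaling 1 of the 30 passed, Irf1, beside 0.599% of all tested genes. With equal Ptprc, 0 passed in limma (1 with an unadjusted p under 0.05), and of the tested genes named below that had a negative difference, Unc93b1, Peli1, Pik3ap1, Cyld and Tlr12 turned positive, at 0.29, 0.14, 0.54, 0.63 and 1.19. The untested Ly96, Tlr3 and Tlr5 also turned positive, at 0.60, 0.49 and 0.10. The median of all tested genes was 0.68 on that scale.

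Of the other Toll-like receptors, Tlr3, Tlr5 and Tlr11 were at 0.19 FPKM or less in each library, and Tlr12 was higher. Tlr3, a sensor of double-stranded RNA, was at 0.06, 0.01, 0.02 and 0.03 FPKM in Ctrl 1, Ctrl 3, Nar 1 and Nar 3, and Tlr5, the flagellin receptor, was at 0.19, 0.03, 0.01 and 0.04 FPKM. Tlr11 was listed at 0 in 3 libraries and at 0.01 FPKM in Nar 1. Tlr12 was at 0.39, 0.96, 0.83 and 0.24 FPKM, which overlaps between groups (log2 difference -0.36, limma adjusted p = 0.592).

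Among accessory proteins, 2 of 6 tested genes passed as lower, beside 39.6% of all tested genes. Ly96, the partner of Tlr4 in binding lipopolysaccharide, was at 0.37 and 0.3 FPKM in the Ctrl libraries against 0.16 and 0.15 FPKM after Nar, too low to be tested. Unc93b1, which carries the nucleic acid sensors to endosomes, was at 9.57 and 7.62 FPKM in the Ctrl libraries against 2.61 and 2.98 FPKM after Nar. Its log2 difference was -1.58 (standard error 0.44, limma adjusted p = 0.027), and with median-of-ratios scaling it was -0.43 and did not pass. Cd36, a scavenger receptor that helps Tlr2 and is abundant on platelets and monocytes, was at 4.24, 9.67, 7.6 and 7.52 FPKM, with a log2 difference of 0.23 (limma adjusted p = 0.703).

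Of the 11 tested kinases and ubiquitin ligases, 6 passed as lower (4 met the limit through control values), beside 39.6% of all tested genes. The lowest was Peli1, a ubiquitin ligase of the receptor complex, with a log2 difference of -1.53 (standard error 0.39, limma adjusted p = 0.023) from 1.68 and 1.12 FPKM in controls to 0.52 and 0.32 FPKM with Nar. The highest was Tab3, a partner of the kinase Tak1, at 0.42, 0.64, 0.79 and 0.36 FPKM and a log2 difference of 0.04 (limma adjusted p = 0.936). The single adaptor tested beside Myd88 was Pik3ap1, at 2.39, 1.33, 0.85 and 0.59 FPKM, with a log2 difference of -1.22 (limma adjusted p = 0.041).

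Of the inhibitors of the pathway, 3 of 5 tested passed as lower (2 met the limit through control values), beside 39.6% of all tested genes. With median-of-ratios scaling the median over the 7 listed, 2 of them not tested, was 0.01. The 5 tested then ranged from -1.155 to 0.03, and 0 passed. Tnfaip3, the ubiquitin-editing enzyme A20, was at 2.1 and 1.66 FPKM in the Ctrl libraries against 0.34 and 0.33 FPKM after Nar. Cyld, a deubiquitinase, had the smallest change of the 5 tested, with a log2 difference of -0.97 (standard error 0.40, limma adjusted p = 0.073). Of the 6 transcription factors, 4 passed as lower (1 met the limit through control values), beside the same 39.6%. Irf1 was at 6.5 and 8.85 FPKM in the Ctrl libraries against 0.96 and 0.6 FPKM after Nar, and its log2 difference of -3.16 (standard error 0.42, limma adjusted p = 0.0043) was the lowest of the 30 tested genes. It was -2.05 with median-of-ratios scaling (limma adjusted p = 0.044). Irf7, which acts below Tlr7 and Tlr9 in interferon induction, was at 18.4 and 78.5 FPKM in Ctrl 1 and Ctrl 3, and at 37.8 and 39.7 FPKM in Nar 1 and Nar 3. The Nar values lay between the control values.

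**Figure D5:**
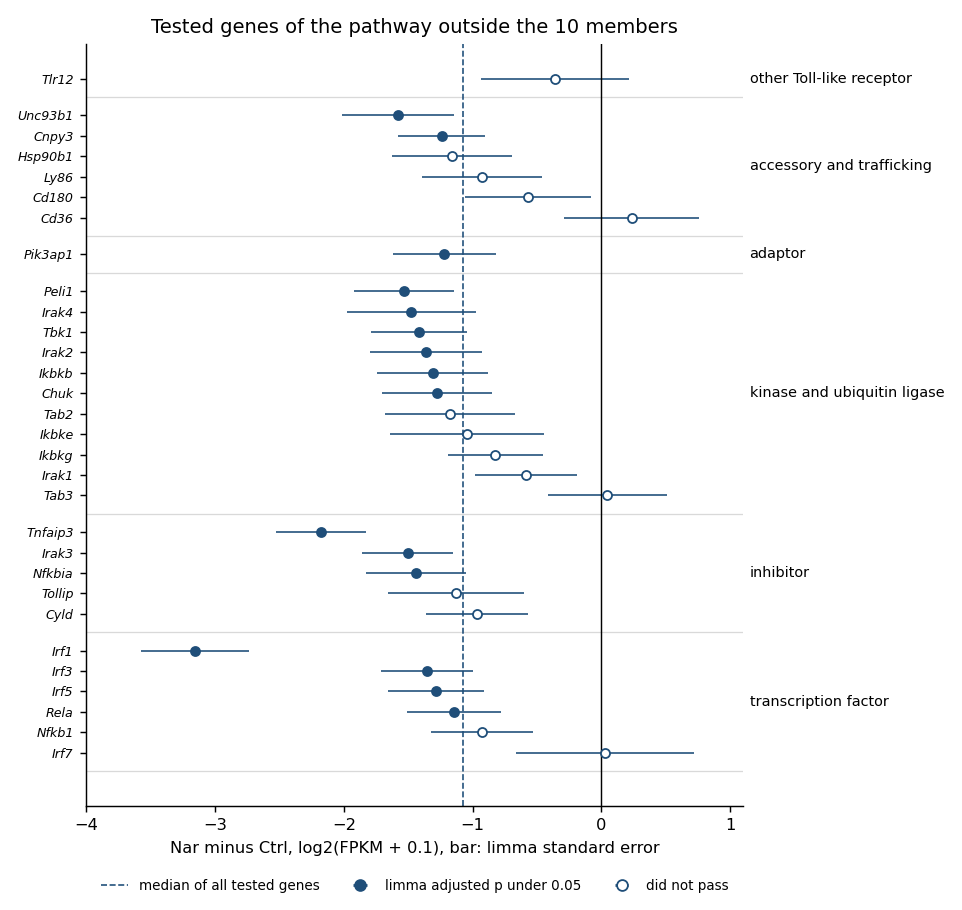
Log2 difference between Nar and Ctrl of the 30 tested pathway genes by role, with limma standard errors. Filled points passed at an adjusted p under 0.05, and the dashed line is the median of all tested genes. Irf1 (-3.16) and Tnfaip3 (-2.18) lie farthest to the left, and Cd36, Tab3 and Irf7 lie above 0.

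The genes nearest to the receptors in level and pattern were found by the Euclidean distance of log2(FPKM + 0.1) over the 4 libraries. For the mean of Tlr1 and Tlr2, the surface receptors above 0.5 FPKM, they were Entpd1, Resf1 and Tbc1d23, at distances of 0.234, 0.309 and 0.315. For Tlr13, the only such endosomal receptor, they were Sh2d3c, Samsn1 and Cd300ld, at 0.165, 0.326 and 0.331. Sh2d3c was at 4.03, 2.07, 0.77 and 0.53 FPKM in Ctrl 1, Ctrl 3, Nar 1 and Nar 3.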

How the data were processed

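Whole blood RNA of 4 mouse libraries (2 Ctrl, 2 Nar) was purified with oligo(dT) beads and sequenced. Per the study's methods, clean reads were aligned to reference genes with bowtie-2; the submitters' processing notes name TopHat2, Cufflinks and GRCm38. The authors deposited FPKM per gene, rounded to 2 decimals. Each of the 4 columns matched 1 library and 0 were left over. Of 23136 genes listed, 5313 were blank and 17823 had values. The read depth is not known from FPKM, and intervals for counting error could not be formed.

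Groups follow the sample titles. The members and gene lists were chosen with earlier results of these data known. The 5339 genes whose mean was 0.5 FPKM or more entered a fit in limma 3.58.1 (R 4.3.3) on log2(FPKM + 0.1), with moderated variances that follow a trend, two-sided, with Benjamini-Hochberg adjustment over all of them. A gene passed at an adjusted p under 0.05. The fit was tested on simulated data. An exact permutation test of 2 libraries against 2 cannot go below p = 0.33, so none is given. Named besides the 10 members were Ptprc, Tlr3, Tlr5, Tlr11, Tlr12, Ly96, the lowest and highest tested pathway gene of each role, the highest gene of each marker list, and the 3 nearest genes of each receptor class; Klk1, Siglech and Ahsp were named after their values were seen. Scaling, pseudocount, filter, trend, block and each library were varied. Coding sequences came from GENCODE M21 and gene positions from RefSeq, both on GRCm38. Plots were drawn with matplotlib 3.10.9.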

Additional observations from a re-analysis of the deposited data

How the results depend on the processing

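The 5 member calls became 3 with haemoglobin genes removed, 1 with median-of-ratios scaling, 0 with equal Ptprc, 0 with no filter (8 of 10 with an unadjusted p under 0.05 in limma) and 1 of 1 tested with a mean of at least 5 FPKM. The 16 pathway calls became 2, 1, 0, 0 (21 of 45 unadjusted) and 0 of 5 tested (1 unadjusted) in the same settings. Of all tested genes, 5.27%, 0.787%, 0.356%, 0% and 10.8% passed in these fits. These shares are at adjusted p. The share of all genes with an unadjusted p under 0.05 is not given here. The unadjusted counts therefore do not set the listed genes apart. Leaving out 1 library gave 0 to 2 member calls and 0 to 2 pathway calls in limma, beside 0% to 4.85% of all tested genes, where the lone library of a group is assumed to vary like the others. There were again 5 member calls with a pseudocount of 1 or 0.01, rescaling to TPM or no trend, and the pathway calls were 12 to 16, beside 33.5% to 42.3% of all tested genes. The surface minus endosomal difference of -0.92 was -0.25 with a pseudocount of 1, -1.32 to -0.79 with the other pseudocount and scalings, and -1.51 to -0.32 with 1 library left out. Tlr1 turned to 0.30 with equal Ptprc. The causes were not tested. Deviations of same-numbered libraries correlated at -0.153 over 5339 genes, so the numbers were not taken as pairs. With the replicate block there were 5 member calls and 14 pathway calls, beside 34% of all tested genes. With crossed pairing, chosen after seeing the data, there were 5 and 20, beside 60.6% of all tested genes. Read depth, unknown here, limits the members below 0.5 FPKM, where a value of 0.04 stands 4 rounding steps above 0.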
